A study of Danio rerio with 4 samples.

Results

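The genes described here are the ferritin heavy chain genes fth1a and fth1b and the heavy chain-like genes fthl27, fthl28, fthl29, fthl30 and fthl31 of zebrafish. They were taken by gene name from a table of transcript abundances, where 7 of 26267 genes, 9 gene IDs and 14 transcripts carried these names. RNA was measured by bulk sequencing in neural crest cells sorted for the red fluorescent reporter sox10:DsRed from embryos at 20 hours post fertilization. One group of cells came from nr2f mutant embryos, labelled nr2f2;nr2f5 in their titles and, in the genotype label, nr2f5 mutant with the state of nr2f2 unknown, and the other came from wild-type embryos. Every library carried the same reporter and held cells pooled from many embryos (88 and 35 embryos for the mutant libraries, 110 and 120 for the wild-type libraries, not tied to replicate numbers), and the 2 libraries of each group are named as biological replicates.

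Ferritin is a hollow protein shell built of many subunits that stores iron in the cytosol in a form that does no harm. In vertebrates the heavy chain carries the ferroxidase centre, which turns ferrous iron into the ferric form that is laid down inside the shell. The amount of ferritin protein is set largely at translation, by iron regulatory proteins that bind the ferritin mRNA when iron is scarce, so an RNA level is one part of the control of this store. The neural crest is an embryonic cell population that gives rise to the facial skeleton, pigment cells and peripheral neurons and glia.

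Levels are the deposited TPM (an abundance already scaled for transcript length and library size), summed over the transcripts of a gene, and differences between groups are on the scale of log2(TPM + 1). The mutated gene nr2f5 stood at 46.5 and 47.1 TPM in the mutant libraries, against 579 and 559 TPM in the wild-type libraries. The gene nr2f2 overlapped between groups, with 67.2 and 51.7 TPM in mutants against 73.5 and 59.3 TPM in the wild type (limma, difference -0.16 ± 0.20, adjusted p = 0.67). The marker lists used here were chosen with earlier results of these data known. All 12 markers listed for neural crest were at 1 TPM or more in every library. Their summed levels were 2976 and 3083 TPM in mutants and 3123 and 3007 TPM in the wild type. The single markers did differ: by the test described below 2 of the 12 rose and 3 fell, beside 4.08% of all genes called, with a median difference of 0.49. For other cells the summed marker levels differed between libraries, and single markers were called in some lists only. By that test 12 of 15 tested myeloid markers fell, beside 2.95% of all genes tested. For skeletal muscle 5 of 20 fell, and for endothelial cells 2 of 13. For epidermis and periderm 1 of 17 fell, and for hatching gland and yolk 1 of 9. Of the erythroid and the liver and gut markers, 0 of 11 and 0 of 8 were called. In each of these lists 0 rose. The summed level of 18 myeloid markers was 30.8 and 42.5 TPM in mutants against 231 and 371 TPM in the wild type; lyz, tyrobp and marco were listed at 0 in both mutant libraries, and tyrobp and marco in both wild-type libraries. The summed level of 24 skeletal muscle markers was 343 and 143 TPM in mutants against 992 and 3208 TPM in the wild type, and that of 18 epidermis and periderm markers was 1044 and 834 TPM against 1147 and 5714 TPM, so that wild-type replicate 2 stood apart. Summed levels of 13 erythroid markers were 436 and 639 TPM in mutants against 922 and 646 TPM in the wild type, those of 18 endothelial markers 41.3 and 25.2 TPM against 107 and 60.4 TPM, and those of 13 liver and gut markers 43.2 and 44.9 TPM against 65.7 and 53.7 TPM; lyve1b was listed at 0 in both mutant libraries. Those of 15 hatching gland and yolk markers were 75.8 and 114 TPM in mutants against 167 and 1020 TPM in the wild type, with ttr and vtna listed at 0 throughout. In bulk libraries fewer cells of a type and less RNA per cell cannot be told apart. The depth behind TPM is unknown.

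The members were chosen by their TPM values in the contrast of mutant with wild-type cells in these same libraries, so the differences below are descriptions without a test. All 7 members were above 0 in every library and passed the minimum mean of 1 TPM used for the fit across 14217 genes. The mutant libraries lay above both wild-type libraries for 5 members and below both for 1, and the groups overlapped for 1; across all genes tested the groups did not overlap for 53.2%, with the mutant libraries above for 18.2% and below for 34.9%. The median difference was 0.14 over the members and -0.16 over all genes tested.

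Among the heavy chain genes proper, fth1a supplied nearly all the RNA. It stood at 818 and 896 TPM in mutant cells and 774 and 789 TPM in the wild type. Both mutant libraries were above both wild-type libraries, by a small margin: the difference was 0.13 ± 0.10 (limma's moderated SE, n = 2 per group), or 0.29 relative to the median of all genes. In each library fth1a ranked between place 200 and place 220 among all genes by level. Its partner fth1b stood at 11.5 and 10.04 TPM in mutant cells and 11.2 and 15.3 TPM in the wild type. The groups overlapped, with a difference of -0.26 ± 0.29, and the level of fth1b was between 0.0112 and 0.0193 of that of fth1a in all 4 libraries.

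The gene fthl27 was the other abundant member and the one that stood lower in mutant cells. Its level was 535 and 548 TPM in mutant cells against 866 and 834 TPM in the wild type, a difference of -0.65 ± 0.10, or -0.49 against the median over all genes. The libraries of each group lay close together, with means of 542 ± 8.8 TPM in mutants and 850 ± 23 TPM in the wild type (SD, n = 2), and the groups did not overlap; the difference was -0.68 without wild-type replicate 2 and -0.62 without wild-type replicate 1. The order of the 2 most abundant members therefore differed between groups: fthl27 stood at 0.655 and 0.611 of the level of fth1a in the mutant libraries, against 1.12 and 1.06 in the wild-type libraries. Of the wild-type libraries, replicate 1 had the higher fthl27 level and the higher summed level of erythroid, endothelial and of liver and gut markers, and replicate 2 had the higher summed level of myeloid, muscle, epidermis and hatching gland and yolk markers. The part of these other cells in the fthl27 difference was not tested.

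The gene fthl28 stood higher in mutant cells. Its level was 68.0 and 89.3 TPM in mutant cells against 15.6 and 30.5 TPM in the wild type, a difference of 1.79 ± 0.30. The lowest mutant value was above the highest wild-type value, and the mutant mean was 3.41 times the wild-type mean. The gene fthl30 had the same form at a lower level, with 22.3 and 24.2 TPM in mutant cells against 4.27 and 9.40 TPM in the wild type and a difference of 1.71 ± 0.35. The mutant mean of fthl30 was 3.40 times the wild-type mean. The size of both ratios depended on which wild-type library was used: against wild-type replicate 1 alone the ratios were 5.03 for fthl28 and 5.44 for fthl30, and against wild-type replicate 2 alone 2.58 and 2.47. Wild-type replicate 2 had the higher level of both genes, and its markers of other cells also differed from those of replicate 1. The part of other cells in the fthl28 and fthl30 differences was not tested. Within a library the level of fthl28 was 3.06 and 3.69 times that of fthl30 in mutant cells. In wild-type cells it was 3.66 and 3.24 times, and the ranges overlapped between groups. Reads that match several transcripts are divided among them by estimation, and the part of this in the likeness of fthl28 and fthl30 was not tested.

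The remaining pair of heavy chain-like genes differed less. The gene fthl31 stood at 123 and 146 TPM in mutant cells against 89.1 and 109 TPM in the wild type. Mutant levels were above wild-type levels without overlap, and the difference was 0.44 ± 0.16; the mutant mean was 1.51 times wild-type replicate 1 and 1.23 times wild-type replicate 2. The gene fthl29 was the lowest member in mutant cells, at 8.19 and 8.16 TPM, against 7.14 and 7.55 TPM in the wild type. Its difference of 0.14 ± 0.30 was smaller than limma's moderated SE, which draws on the spread of all genes tested. Its own libraries lay close together, at 8.17 ± 0.017 TPM in mutants and 7.35 ± 0.29 TPM in the wild type (SD, n = 2), and the groups did not overlap.

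**Figure D1:**
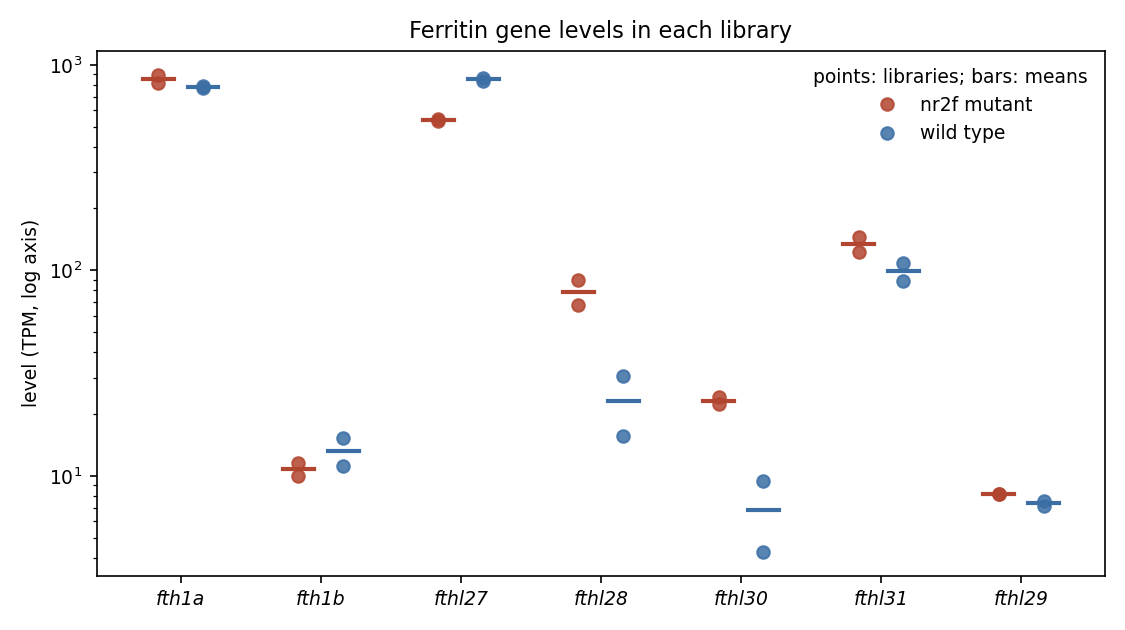
Level of each ferritin member in TPM on a log axis, with a point for each library and a bar at the mean of each group (mutant in red on the left, wild type in blue on the right). The mutant points of fthl27 lie below the wild-type points (535 and 548 against 866 and 834 TPM), those of fthl28 and fthl30 lie well above, and those of fth1b overlap.

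Ranked by mean level, the order in mutant cells was fth1a, fthl27, fthl31, fthl28, fthl30, fth1b and fthl29, and no neighbours in that order overlapped. In wild-type cells the order was fthl27, fth1a, fthl31, fthl28, fth1b, fthl29 and fthl30. There fthl29 and fthl30 overlapped, and fth1b (11.2 and 15.3 TPM) came within 1 TPM of the lower fthl28 library (15.6 TPM). The place of fthl30 differed between the groups: it was the lowest of the 7 by mean in wild-type cells, at 6.83 ± 3.6 TPM, and above both fth1b and fthl29 in mutant cells, at 23.2 ± 1.4 TPM (SD, n = 2).

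The make-up of the summed level of the 7 members differed between groups, and the sum itself differed by a small margin. The sum was 1587 and 1722 TPM in mutant cells against 1768 and 1795 TPM in the wild type. As deposited, both mutant sums were below both wild-type sums. The difference of -0.11 became 0.08 with median-ratio scaling, so no direction is given for it. Of this sum fthl27 made up 33.7% and 31.8% in mutant cells against 49.0% and 46.5% in wild-type cells, and fth1a made up 51.6% and 52.1% against 43.8% and 44.0%. The share of fthl28 was 4.29% and 5.18% in mutant cells against 0.885% and 1.70% in wild-type cells. These shares are formed within a library and do not depend on a scaling by a single factor per library. Quantile normalization moves genes unequally, and shares under it were not formed.

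**Figure D2:**
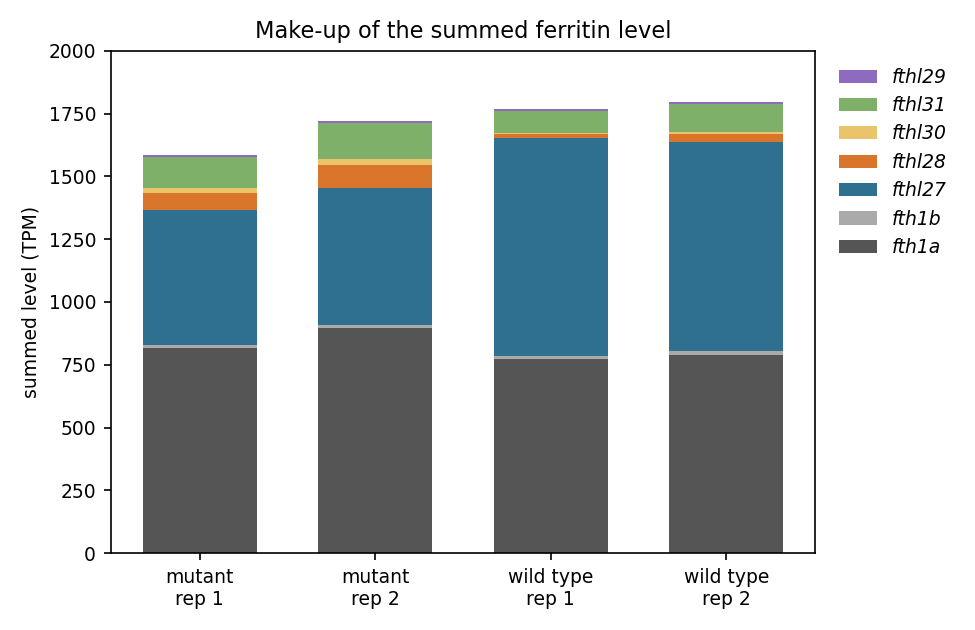
Stacked bars of the summed level of the ferritin members in TPM for each library, split by gene. The fthl27 segment is shorter in the mutant bars (33.7% and 31.8% of the sum) than in the wild-type bars (49.0% and 46.5%), and the fthl28, fthl30 and fthl31 segments are taller.

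The 5 heavy chain-like genes lie side by side on chromosome 3 in the RefSeq annotation of the assembly GRCz12tu, in the order fthl27, fthl28, fthl30, fthl31 and fthl29 with no other protein-coding gene among them, whereas fth1a is on chromosome 7 and fth1b on chromosome 25. This annotation is of another build than the GRCz11 named for the data and was used for names and order only. Within the row the gene at one end, fthl27, stood lower in mutant cells and the next 3 stood higher. The gene at the other end, fthl29, also stood higher without overlap, by less than its moderated SE. Summed over the row, the level was 757 and 815 TPM in mutant cells against 983 and 991 TPM in the wild type, a difference of -0.33, and -0.15 with median-ratio scaling. In absolute terms the mean of fthl27 differed by -309 TPM and the mean summed level of fthl28, fthl30 and fthl31 by 108 TPM (236 ± 32 TPM in mutants and 129 ± 28 TPM in the wild type; SD, n = 2). Of the level of the row, fthl27 made up 70.7% and 67.2% in mutant cells against 88.2% and 84.2% in wild-type cells, fthl31 16.3% and 17.9% against 9.07% and 10.99%, and fthl28 8.99% and 10.9% against 1.59% and 3.07%.

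Genes that flank the row were looked up after the members' values were seen. The next gene before fthl27 is aldh16a1, of the aldehyde dehydrogenase family, which stood at 31.0 and 28.2 TPM in mutants against 37.2 and 35.0 TPM in the wild type and did not pass the test across all genes (limma, difference -0.28 ± 0.21, adjusted p = 0.464). Beyond it baxb, named for the apoptosis gene Bax, stood at 6.64 and 8.35 TPM against 15.5 and 14.3 TPM and did not pass either (limma, difference -0.91 ± 0.29, adjusted p = 0.117). On the far side LOC558816 and zgc:173594 come first, and no level was found under their names. Beyond them syt5a was listed at 0 in all 4 libraries, and tnnt1 stood at 0.065 TPM or less in each. The gene pih1d1 after these stood at 35.4 and 27.7 TPM in mutants against 22.2 and 19.2 TPM in the wild type (limma, difference 0.58 ± 0.24, adjusted p = 0.204).

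By transcript, each member with several transcripts was led by the same one in every library. For fthl27 the transcript ENSDART00000044238 held 99.4% and 99.5% of the level in mutant cells and 99.6% and 99.6% in wild-type cells, at 532 and 545 TPM against 863 and 832 TPM. The other 3 transcripts of fthl27, including the single one of its second gene ID ENSDARG00000116586, stood at 2.00 TPM or less in every library. For fth1a the minor transcript ENSDART00000184664 stood at 63.6 and 62.4 TPM in mutants and 62.8 and 66.1 TPM in the wild type, and the groups overlapped. The higher fth1a level in mutant cells thus lay in the major transcript ENSDART00000027329, at 754 and 834 TPM against 711 and 723 TPM.

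For fthl31 the minor transcript differed more than the major one. The major transcript ENSDART00000111688 stood at 98.4 and 104 TPM in mutant cells against 77.1 and 92.9 TPM in the wild type. The minor transcript ENSDART00000055287 stood at 21.7 and 36.5 TPM in mutant cells against 11.4 and 13.6 TPM in the wild type. It made up 17.6% and 25.1% of the gene's level in mutant cells and 12.9% and 12.5% in wild-type cells. The single transcript of the second fthl31 gene ID ENSDARG00000113150 stood at 3.14 and 4.91 TPM against 0.505 and 2.40 TPM, and the transcript ENSDART00000133754 was listed at 0 in all libraries. The genes fth1b, fthl28, fthl29 and fthl30 each had 1 transcript. Kallisto divides reads that match several transcripts among them by estimation, so levels of near-identical copies are uncertain; how alike these sequences are was not analysed here.

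**Figure D3:**
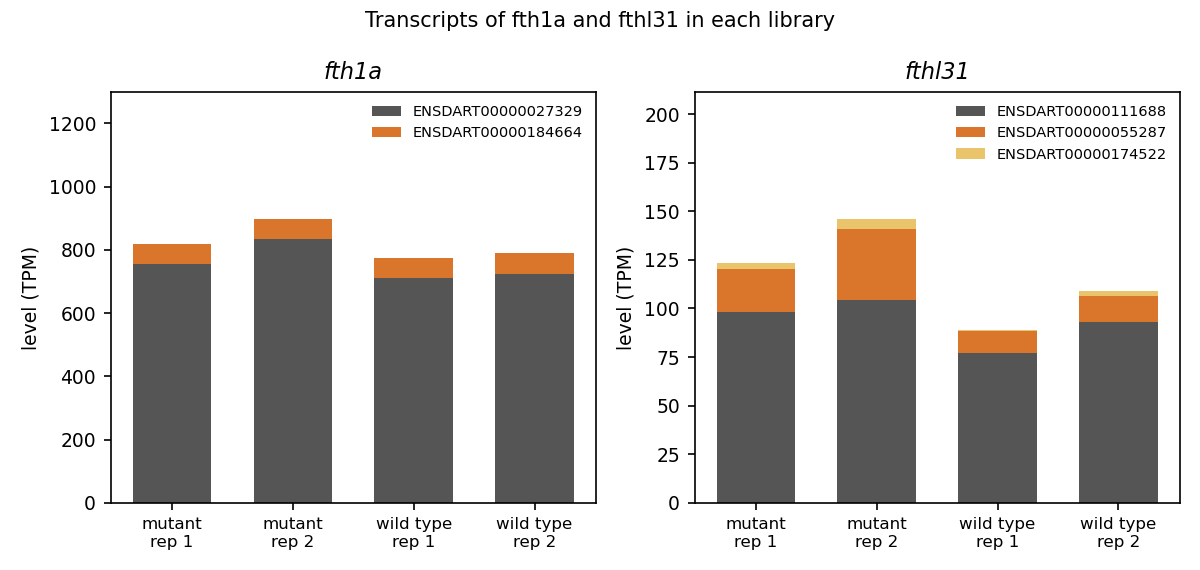
Level in TPM of the transcripts of fth1a (left) and fthl31 (right) in each library, stacked; a transcript listed at 0 in every library is not drawn. The minor fth1a transcript is of like height in all bars (62.4 to 66.1 TPM), and the minor fthl31 transcript ENSDART00000055287 is taller in the mutant bars (21.7 and 36.5 TPM) than in the wild-type bars (11.4 and 13.6 TPM).

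The genes of iron handling around ferritin were mostly not called. Of 119 genes of 9 lists that cover uptake, export, sensing, ferritin loading, haem, iron-sulfur clusters, glutathione and the factor Nrf2, and of 1 list of further ferritin relatives, 96 were tested; 1 rose, 2 fell and 93 did not pass (limma with Benjamini-Hochberg adjustment over all genes, adjusted p under 0.05). Across all genes tested 4.08% were called, 1.13% rising and 2.95% falling, so the 3 calls are a share near the background. The median difference of the 96 genes was -0.15, against -0.16 over all genes tested. The list of further relatives held 5 names, of which ftl, ftmt, fth1 and fthl32 were not in the table. The 1 name found, ftcd, is an enzyme gene of histidine breakdown that is no ferritin, and it was too low to test. Ferritin genes under other names were not looked for, so the summed ferritin levels above cover the named members only.

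The 3 called genes lay in different lists. The gene hjv, whose product hemojuvelin is a Bmp co-receptor that drives the iron hormone hepcidin and in mammals is made in liver and skeletal muscle, fell; it stood at 0.841 TPM and was listed at 0 in the mutant libraries, against 10.1 and 16.02 TPM in the wild-type libraries (limma, difference -3.34 ± 0.43, adjusted p = 0.00381). The muscle markers given above were lower in the same libraries, and their part in this fall was not tested. The gene gsr, which encodes glutathione reductase, fell to 18.7 and 18.9 TPM in mutant cells, against 56.4 and 73.7 TPM in the wild type (limma, difference -1.72 ± 0.22, adjusted p = 0.00335). The part of the lower markers of other cells, given above, in the fall of gsr was not tested either. The gene fdx1b, which encodes a mitochondrial ferredoxin that zebrafish use in steroid synthesis, rose to 7.05 and 6.12 TPM in mutant cells, against 1.23 and 0.301 TPM in the wild type (limma, difference 2.15 ± 0.41, adjusted p = 0.0205). The call of fdx1b was lost when either mutant library was left out (difference 2.06 without replicate 1 and 2.24 without replicate 2). It was also lost per gene ID, taking the ID with the highest mean (limma, difference 1.77, adjusted p = 0.0609). The adjusted p of fdx1b ran from 0.00596 to 0.287 over 13 alternatives, 8 of which kept the call. The genes hjv and gsr were called under 12 of 14 alternatives each, and per gene ID gsr differed by -2.16.

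Genes listed for iron uptake and reduction or for iron export did not pass. Of 14 uptake and reduction genes, 7 were tested and 0 passed, with a median difference of 0.07. The mutant libraries were below both wild-type libraries for 3 of the 7 and above for 0, beside 34.9% and 18.2% of all genes tested. The iron transporter gene slc11a2 had 47.7 and 54.2 TPM in mutants and 49.2 and 33.1 TPM in the wild type, and the transporter gene slc39a13 had 14.9 and 20.8 TPM against 15.4 and 18.2 TPM; for both the groups overlapped. The iron exporter ferroportin, encoded by slc40a1, was the 1 export gene of 5 that could be tested, at 1.71 and 3.37 TPM in mutants against 4.15 and 4.43 TPM in the wild type (limma, difference -0.62 ± 0.39, adjusted p = 0.396). The hepcidin gene hamp was listed at 0 in all 4 libraries.

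Of 11 genes of iron sensing and hepcidin signalling, 8 were tested, hjv fell and 7 did not pass, with a median of -0.26. The genes of the iron regulatory proteins, aco1 and ireb2, added with their values known, overlapped between groups, with 21.2 and 17.0 TPM for aco1 in mutant against 27.4 and 19.3 TPM in the wild type. Of 7 genes of ferritin loading and of its breakdown by autophagy, 5 were tested and 0 passed, with a median of -0.13. The poly(rC)-binding protein gene pcbp2, whose mammalian product delivers iron to ferritin, stood at 235 and 216 TPM in mutants and 253 and 218 TPM in the wild type, and the autophagy receptor gene tax1bp1b at 55.6 and 42.1 TPM against 70.3 and 54.4 TPM; the groups overlapped for both. The ferritin cargo receptor gene ncoa4, added with its values known, stood at 46.4 and 48.7 TPM against 56.2 and 48.5 TPM and also overlapped.

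Haem genes did not pass. Of 10 haem synthesis genes all were tested and 0 passed, with a median of -0.16; the mutant libraries were below both wild-type libraries for 4 genes and above for 2, beside 34.9% and 18.2% of all genes tested. The gene alas1, for the first enzyme of the pathway, stood at 55.6 and 70.6 TPM in mutants against 84.2 and 88.8 TPM in the wild type (limma, difference -0.46 ± 0.17, adjusted p = 0.172), and urod at 58.8 and 65.02 TPM against 79.9 and 76.1 TPM (limma, difference -0.33 ± 0.16, adjusted p = 0.28). Of 13 tested genes of haem breakdown and transport 0 passed, with a median of -0.31. The mutant libraries were below both wild-type libraries for 4 of the 13 and above for 2, beside the same shares of all genes tested. The biliverdin reductase gene blvra stood at 29.2 and 23.3 TPM in mutants and 38.9 and 27.1 TPM in the wild type. For blvrb, added with its values known, levels were 2.43 and 3.35 TPM against 7.96 and 8.01 TPM (limma, difference -1.22 ± 0.34, adjusted p = 0.0853). The gene fabp11a of the same list encodes a fatty acid binding protein rather than a haem enzyme, and stood at 51.9 and 43.6 TPM against 32.6 and 26.0 TPM (limma, difference 0.69 ± 0.21, adjusted p = 0.11); it was called with median-ratio scaling (adjusted p = 0.0242, with a range of 0.0242 to 0.379 over 14 alternatives).

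In the list of mitochondrial iron and iron-sulfur cluster genes 20 were tested, fdx1b rose and 19 did not pass, with a median of 0.01. Of these, 6 had both mutant libraries above both wild-type libraries and 0 had them below, beside 18.2% and 34.9% of all genes tested. Of 14 tested genes of glutathione and defence against lipid peroxides gsr fell and 13 did not pass, with a median of -0.30; the mutant libraries were below both wild-type libraries for 7 of them and above for 0, beside 34.9% and 18.2% of all genes tested. Of 18 tested genes of Nrf2, a factor that in mammals activates ferritin heavy chain transcription, and its targets 0 passed, with a median of -0.14. The mutant libraries were below both wild-type libraries for 7 of the 18 and above for 4, beside the same shares of all genes tested. Both targets named next were among the 4 above. The targets with the highest level were taldo1 of the pentose phosphate pathway, at 579 and 592 TPM in mutants against 534 and 555 TPM in the wild type (limma, difference 0.11 ± 0.10, adjusted p = 0.574), and the glutathione transferase gene gstp1, at 346 and 385 TPM against 319 and 346 TPM (limma, difference 0.14 ± 0.11, adjusted p = 0.527).

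**Figure D4:**
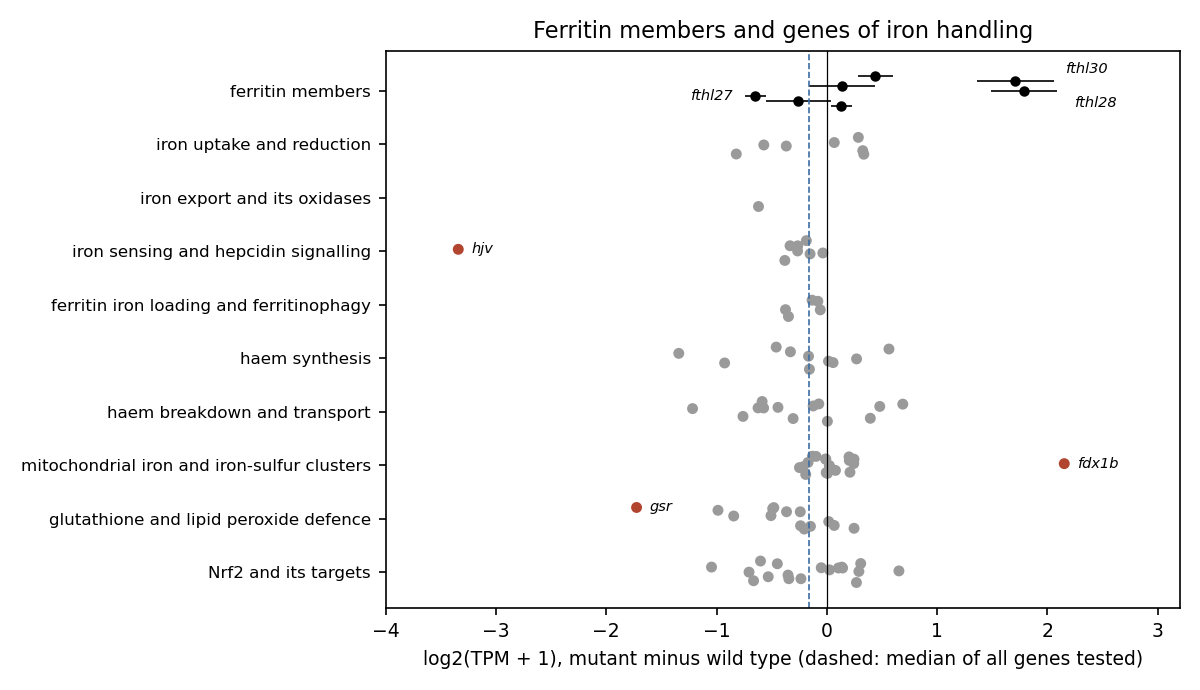
Difference in log2(TPM + 1), mutant minus wild type, for the 7 ferritin members (black, with moderated SE) and for each tested gene of the iron handling lists (red where the adjusted p was under 0.05, grey otherwise); vertical positions within a row only separate the points. The members spread from -0.65 for fthl27 to 1.79 for fthl28, and hjv, fdx1b and gsr are the labelled genes outside the members; the dashed line marks the median of all genes tested, -0.16.

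Genes with the most similar pattern over the 4 libraries were found by the Euclidean distance between profiles of log2(TPM + 1), each centred on its own mean. The search covered 8160 genes outside the members with a symbol and a mean of 5 TPM or more. Clone names and symbols that end in a dot and a number were left out. This is a description of 4 libraries. Nearest to fth1a were farsa (distance 0.022 on the log2 scale), a subunit of phenylalanyl-tRNA synthetase; the translation factor gene eif5a (0.025); ranbp1 (0.026), which acts in nuclear transport; tmc6b (0.031); and the purine synthesis gene adsl (0.031). Nearest to fthl28, the member with the largest difference, were the glutaredoxin gene glrx (0.431), the calcium-binding protein gene s100b (0.440), gngt2a (0.548), abi3b (0.632) and kdelr3 (0.721). Of the members, fthl30 was closer to fthl28 than any of these, at a distance of 0.211, and fthl27 was at 2.54. The limit given above for reads that match several transcripts applies to the distance of fthl30 too. The gene glrx stood at 75.2 and 86.9 TPM in mutants against 23.4 and 34.1 TPM in the wild type, and s100b at 70.0 and 69.4 TPM against 17.2 and 23.9 TPM.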

How the data were processed

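The authors deposited 1 table of TPM per Ensembl transcript, giving gene IDs and names and 1 column per sample. The tool kallisto and the build GRCz11 appear per the submitters' processing notes; versions and other steps are not given in the sources used here. Of 65905 transcripts, 57775 had values, and each column summed to 1000000. TPM keeps no counts, so depth is unknown and no count model was used. Transcripts were summed per gene name, or gene ID where no name was given. The 14217 genes that averaged at least 1 TPM were fitted as log2(TPM + 1) with limma 3.58.1 in R 4.3.3 (trend and robust moderation, statmod 1.5.0), mutant against wild type, two-sided, with Benjamini-Hochberg adjustment over all of them; fold changes on this scale understate those of low genes. P-values set the difference between groups against the spread between these libraries (n = 2 per group), which limma moderates with that of all genes tested.

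The members, the pathway and marker lists and the tests were chosen with earlier results of these data known. Named pathway genes were up to 4 called genes per list with the smallest p, or else the 2 with the highest mean. Same-numbered libraries did not deviate together (r = -0.012 across genes). Planned comparisons of promoter motifs and protein sequences were not run, since the sequences they need were not available here.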

Additional observations from a re-analysis of the deposited data

How the results depend on the processing

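All 7 members kept the sign of their difference under the 3 other scalings. Median-ratio scaling and rescaling without mitochondrial and ribosomal protein genes raised all members by like amounts. These were too small to turn the smallest negative difference, that of fth1b (-0.26, then -0.09 and -0.24). Only quantile normalization moves genes unequally, and fth1b came to -0.02 under it. The other alternatives say little of the sign either. Filter, moderation and block cannot move a member's difference. Leaving out a library could turn only that of fth1b, whose groups overlapped. Over all 14 alternatives the differences ranged from -0.73 to -0.47 for fthl27, from 1.33 to 2.25 for fthl28, from 1.22 to 2.20 for fthl30, from 0.30 to 0.62 for fthl31, from 0.07 to 0.31 for fth1a, from 0.09 to 0.42 for fthl29 and from -0.47 to -0.02 for fth1b. The summed level of the 7 members differed by -0.11, by 0.075 with median-ratio scaling and by -0.17 to -0.05 without 1 library. The sum over fthl27 to fthl31, added after the data were seen, differed by -0.33. It was -0.15 with median-ratio scaling, -0.31 with rescaling and -0.38 with quantile normalization.

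Across all genes limma called 580, of which 27.8% rose (47.5% with median-ratio scaling, 48.1% with quantile normalization). It called 110 to 720 without 1 library (195 without mutant replicate 1, 110 without mutant replicate 2), 0 without a filter (3448 at an unadjusted p under 0.05) and 0 without trend and robust moderation (2531). Iron genes called were 3, 2 to 3 without 1 library, 5 with median-ratio scaling (3 rose and 2 fell), and 0 in both of those last settings, with 15 and 12 at an unadjusted p under 0.05. With the replicate block 565 genes and 4 iron genes were called. Among genes that did not pass, slc39a13 ranged from -0.16 to 0.29 without 1 library (-0.05 without wild-type replicate 1), and pcbp2 from -0.17 to 0.048 (0.0019 without mutant replicate 2) and was 0.12 with median-ratio scaling. The causes were not tested. Where leaving out a library left 1 in a group, that one is assumed to vary like the other group. The gene fdx1b had no value at a minimum mean of 5 TPM, nor had slc40a1. Depth is unknown, so what it limits cannot be given, and levels near 0 are described as listed.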
